A study of Mus musculus with 24 samples.

Results

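The 35 genes described here are Myc, its relative Mycn and 33 genes chosen as likely MYC targets, most of them factors that build ribosomes. They were taken from a written list, chosen with earlier results of these data known. Each of the 35 was measured by at least 1 probe set with a single gene symbol, out of 19938 genes measured in this way. For the 6 of the 35 with more than 1 such probe set, the brightest of them by its mean was used. The study asked how the dosage of the B cell factor Pax5 and the oncogene BCR/ABLp190 bear on metabolism while precursor B cell leukaemia develops in mice. RNA of each sample was hybridised to 1 Affymetrix mouse gene array, and all levels below are deposited log2 values, so that a difference of 1 is a doubling.

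The 24 arrays fell into 6 groups. The leukaemia set consisted of bone marrow with tumour from 7 Sca1-BCR/ABLp190+Pax5+/- mice (heterozygous leukaemias), the same tissue of 2 Sca1-BCR/ABLp190 mice (oncogene-alone leukaemias) and B220+ bone marrow B cells of 5 wild-type mice. In the precursor set were proB and preB cells of bone marrow before leukaemia, from 3 Sca1-BCR/ABLp190+Pax5+/- mice (heterozygous precursors), from 3 Sca1-BCR/ABLp190 mice (oncogene-alone precursors) and from wild-type mice, for which the labels give 4 arrays and the design text 3 mice. The Sca1 promoter, active in blood stem and progenitor cells, drives the transgene in all 4 oncogene-bearing groups, and all animals were kept in a conventional facility with exposure to common pathogens. The labels name no cell sort for the leukaemias, no age and no markers for the sorts, and the replicates are called biological.

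MYC binds DNA together with MAX at the letters CACGTG, the E-box, and raises the output of a large set of genes of growth. Among them are the factors that make ribosomes: RNA polymerase I copies the ribosomal RNA gene in the nucleolus, small nucleolar ribonucleoproteins (snoRNPs) guide the modification of that RNA, and 2 sets of assembly factors fold and cut it into the small and the large ribosomal subunit. In precursor B cells MYC acts during the bursts of division that follow a productive receptor rearrangement, and it falls as the cells mature.

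Promoters are shown because the listed genes were chosen as likely MYC targets and moved together in several comparisons. RefSeq windows of assembly GRCm38.p6, from 250 bases before to 50 after the annotated start, were found for 28 of the 35 genes. Both strands were searched for CACGTG and for the variant CACGCG, whose matches cannot share a letter with those of the first on either strand. There were 32851 windows for 27025 genes, so a gene could have several, and it was counted where any held a match. CACGTG stood in 7 of the 28 genes (25%), against 8.09% of the 27025 genes and 14.3% of those of like brightness, defined below. In the 250 upstream bases alone it stood in 2 of 28 (7.14%), against 6.86% and 11.8%. Over whole windows CACGCG stood in 10 of the 28 genes (35.7%), against 10.5% and 21.6%. A match describes letters in a window and is not evidence of binding. Nop2, an RNA methyltransferase of the large subunit, was 1 of the 2 genes with an upstream match. Its 250 upstream bases, on the plus strand at chr6:125131633-125131882, are given with CACGTG in capitals.
Nop2: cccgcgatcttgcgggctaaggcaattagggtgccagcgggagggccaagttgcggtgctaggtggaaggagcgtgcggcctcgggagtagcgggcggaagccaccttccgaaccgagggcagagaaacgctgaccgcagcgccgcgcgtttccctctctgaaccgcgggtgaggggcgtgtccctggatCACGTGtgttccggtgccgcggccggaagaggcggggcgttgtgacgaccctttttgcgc

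The other 6 matches are shown as short stretches, to let the flanks of the E-box be compared. Hspd1 (chr1:55088306-55088335, minus strand) has the first base of its match at position -80 relative to 1 of its annotated starts. The remaining matches lie past the start, at 3 in Pes1 (chr11:3963965-3963994, plus), 18 in Wdr43 (chr17:71616220-71616249, plus), 38 in Utp20 (chr10:88826765-88826789, minus), 38 in Pno1 (chr11:17211540-17211564, minus) and 41 in Mybbp1a (chr11:72441355-72441376, plus). The capitals mark CACGTG.
Hspd1: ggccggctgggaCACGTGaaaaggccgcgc
Pes1: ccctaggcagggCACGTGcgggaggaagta
Wdr43: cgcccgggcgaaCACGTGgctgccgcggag
Utp20: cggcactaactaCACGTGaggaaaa
Pno1: tgtacaaccacgCACGTGttcctct
Mybbp1a: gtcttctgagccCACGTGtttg

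The listed genes were bright on these arrays. Their means over 24 arrays ran from 6.36 to 11.26 with a median of 9.35, and 81.7% of all genes were dimmer than that median. For this reason counts are set both against all genes and against the 3072 genes of like brightness, those with a mean between 8.76 and 9.90, the span between the quartiles of the listed genes. Groups were compared with limma, and a gene is said to have risen or fallen where its p-value, adjusted by Benjamini-Hochberg over all 19938 genes, was under 0.05. Differences are given as log2 change ± SE of the limma fit.

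The arrays also differed in other ways, and in such bulk samples fewer cells of a type and less RNA per cell cannot be told apart. The mean of 10 B lineage markers was 8.27 to 9.93 in heterozygous leukaemias and 8.41 to 8.50 in oncogene-alone leukaemias, against 11.94 to 12.23 in B220+ cells and 10.30 to 10.83 over the 10 precursor arrays. Monocyte and macrophage markers (13 measured) stood at 7.68 to 10.20 in heterozygous leukaemias and 8.10 to 9.40 in oncogene-alone leukaemias, against 6.36 to 6.64 in B220+ cells. Neutrophil markers (14 measured) stood at 11.59 and 12.17 in the oncogene-alone leukaemias, and the erythroid mean there was 12.04 on array 1 and 7.97 on array 2. Pax5 itself was at 11.80, 11.58 and 12.004 in heterozygous precursors and at 11.81 to 12.02 in wild-type precursors (-0.11 ± 0.10, adjusted p = 0.543, limma). No source used here says where its probes lie on the targeted allele, so this level does not check the genotype labels.

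Both leukaemias stood highest and the oncogene-alone precursors lowest for most of the listed genes. Both leukaemia means were above the means of all other groups in 31 of the 35 genes. Of the 35, 22 had their highest group mean in heterozygous leukaemias, 12 in oncogene-alone leukaemias and 1, the large subunit factor Bop1, in heterozygous precursors. The lowest group mean was that of the oncogene-alone precursors in 31 genes. In 31 genes the 3 precursor groups were ordered oncogene-alone below heterozygous below wild type. For these counts of group means the share over all genes was not computed. Genes of like brightness also had medians lower in both oncogene-bearing precursor groups than in wild type, more so in oncogene-alone ones, as given later. Every one of the 9 leukaemia arrays was above every one of the 15 others in 9 genes, against 3.08% of all genes. These 9 were Mybbp1a, Nop58, Rrp12, Rcl1, Pno1, Gnl3, Ncl, Ddx21 and Srm.

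**Figure D1:**
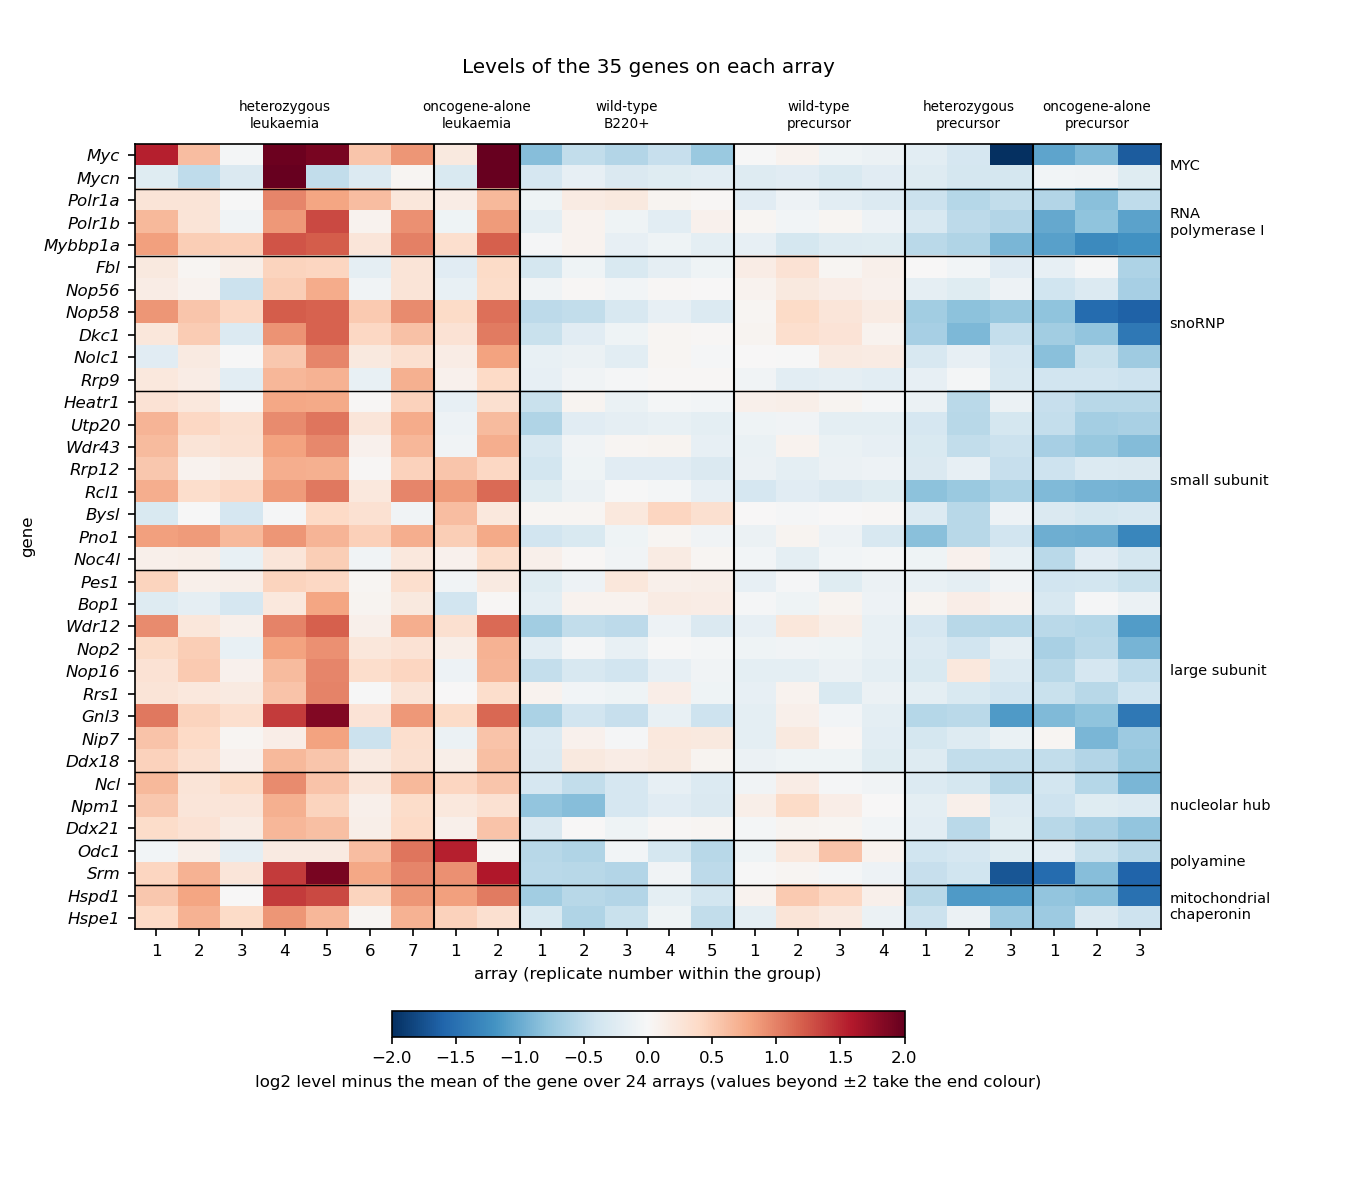
Log2 level of each of the 35 genes (rows, grouped by role) on each of the 24 arrays (columns, grouped), minus the mean of that gene over all arrays. The leukaemia columns are mostly red (above the mean), the oncogene-alone precursor columns mostly blue, and heterozygous leukaemia arrays 4 and 5 are the deepest red of their group.

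Myc, the transcription factor that heads the list, was higher in every leukaemia than in every B220+ sample. Over the 7 heterozygous leukaemias its level was 9.74 at the lowest, 10.65 at the median and 11.74 at the highest. The B220+ samples read 8.92, 9.28, 9.19, 9.31 and 9.03. The groups did not overlap, and Myc rose by 1.69 ± 0.38 (3.22-fold, adjusted p = 0.00503, limma).

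The 2 oncogene-alone leukaemias had Myc at 9.97 and 11.91, which spans nearly the whole range of the heterozygous ones. Against B220+ cells Myc rose by 1.79 ± 0.55 (adjusted p = 0.0344, limma). This call was lost under 7 of 16 other settings. Without array 2 of the oncogene-alone leukaemias the change was 0.82 (adjusted p = 0.376).

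Among precursors, Myc read 9.77, 9.84, 9.69 and 9.66 in wild type, 9.56, 9.43 and 7.40 in heterozygous and 8.71, 8.88 and 8.11 in oncogene-alone samples. Both oncogene-bearing groups lay wholly below wild type, and the heterozygous array 3 was the lowest of all 24. The changes, -0.94 ± 0.45 for heterozygous and -1.17 ± 0.45 for oncogene-alone precursors, did not pass the test (adjusted p = 0.240 and 0.0749, limma). Without heterozygous array 3 the first was -0.24, and with array weights -0.38. The second passed with array weights (-1.13, adjusted p = 0.0326).

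Mycn, which serves in place of Myc in some early progenitors and tumours, was high on 2 arrays only. Heterozygous leukaemia 4 read 9.73 and oncogene-alone leukaemia 2 read 10.06, while the other 22 arrays lay between 6.55 and 7.10. Both arrays also had the highest Myc of their group, 11.74 and 11.91. Mycn passed the test in none of the 12 comparisons, its changes reaching 1.60 ± 0.71 (oncogene-alone leukaemias against wild-type precursors, adjusted p = 0.111, limma).

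**Figure D2:**
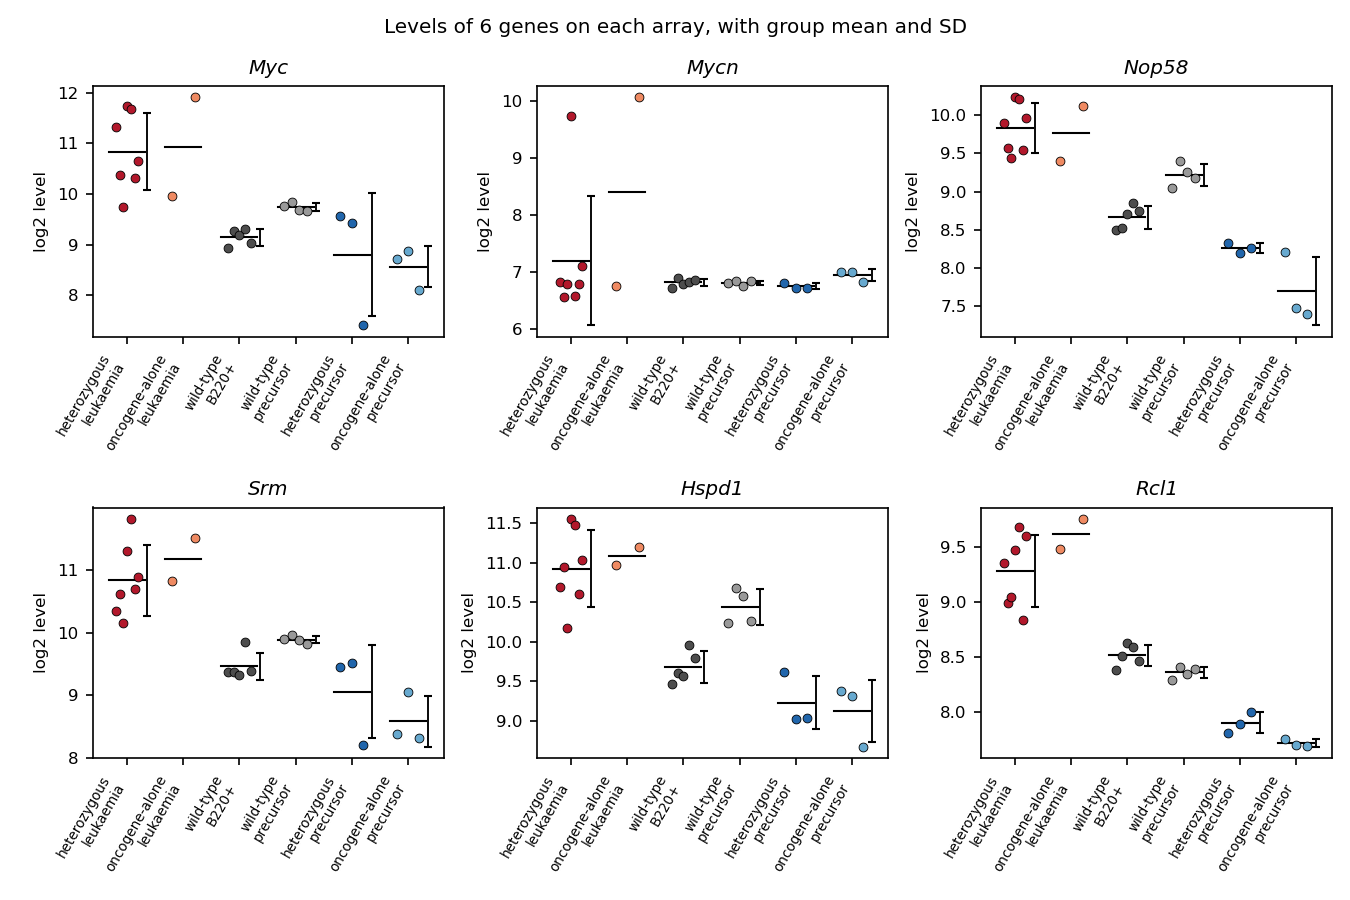
Log2 levels of Myc, Mycn, Nop58, Srm, Hspd1 and Rcl1 on each array (points) by group, with the group mean (line) and SD (bar, groups of 3 or more). Leukaemia points lie above the B220+ points for all genes but Mycn, whose values of 9.73 and 10.06 stand alone.

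Against wild-type B220+ cells, 21 of the 35 genes rose in heterozygous leukaemias and 0 fell. Of all genes 12.9% rose and 18.9% fell, and of genes of like brightness 17.4% and 28.4%. The median change of the 35 was 0.62, against -0.06 over all genes and -0.09 over those of like brightness. In 17 of the 35 every leukaemia lay above every B220+ sample, which held for 8.65% of all genes. Under median centring of the arrays 17 rose and 1, the small subunit factor Bysl, fell. That scaling also moved the share of higher genes among all called genes from 40.5% to 16.4%, and cyclic loess moved it to 53.1%.

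The snoRNP genes rose in part. Nop58, a core protein of the box C/D particles that guide RNA methylation, read 9.44 at the lowest, 9.90 at the median and 10.23 at the highest in heterozygous leukaemias. It read 8.50, 8.53, 8.70, 8.85 and 8.74 in B220+ cells. The groups lay apart, by 1.17 ± 0.16 (adjusted p = 0.000188, limma). Of the 6 snoRNP genes 3 rose, with changes from 0.19 to 1.17. Its partner Nop56 was at 0.19 ± 0.17 (adjusted p = 0.402).

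Small subunit factors included the smallest adjusted p of the list. Pno1, which binds the pre-ribosome until its last steps, ran from 9.26 through a median of 9.52 to 9.67 in heterozygous leukaemias and read 8.40, 8.48, 8.69, 8.82 and 8.71 in B220+ cells. It rose by 0.89 ± 0.092 (adjusted p = 1.79e-05, limma), with no overlap. Rcl1, a processome component, rose by 0.77 ± 0.14 and Utp20, a scaffold protein, by 0.90 ± 0.17. Of the 8 small subunit genes 6 rose, and Bysl was at -0.21 ± 0.14 (adjusted p = 0.247).

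The 3 abundant nucleolar proteins of the list all rose. Ncl (nucleolin) ran from 11.51 through 11.82 to 12.20 in heterozygous leukaemias and read 10.93, 10.76, 10.92, 11.10 and 10.99 in B220+ cells, a rise of 0.84 ± 0.11 (adjusted p = 0.000133, limma). Npm1 (nucleophosmin) rose by 0.88 ± 0.13, and the RNA helicase Ddx21 by 0.43 ± 0.11.

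Fewer of the large subunit and polymerase genes passed. Of the 9 large subunit genes 4 rose, among them the nucleostemin gene Gnl3 (1.30 ± 0.26), and Bop1 was at 0.02 ± 0.17 (adjusted p = 0.945, limma). Pes1 and Wdr12 form a complex with Bop1: Wdr12 rose by 1.03 ± 0.22, and Pes1 was at 0.25 ± 0.10 (adjusted p = 0.0787). Of the 3 genes of RNA polymerase I and its surroundings, Mybbp1a, a nucleolar MYB-binding protein, rose by 0.87 ± 0.19. The 2 polymerase subunits Polr1a and Polr1b were at 0.37 and 0.63 (adjusted p = 0.0946 and 0.0574).

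Polyamine and chaperonin genes had some of the largest changes. Srm, the spermidine synthase, ran from 10.16 through 10.70 to 11.82 in heterozygous leukaemias and read 9.38, 9.37, 9.33, 9.85 and 9.39 in B220+ cells. It rose by 1.37 ± 0.25 (2.59-fold, adjusted p = 0.00133, limma). Odc1, the enzyme before it in the pathway, was at 0.70 ± 0.26 (adjusted p = 0.0563). Hspd1 and Hspe1, the mitochondrial chaperonin and its lid, share 1 promoter region in opposite directions. Hspd1 ran from 10.17 through 10.94 to 11.56 against 9.47, 9.60, 9.57, 9.96 and 9.80 and rose by 1.25 ± 0.21. Hspe1 rose by 0.92 ± 0.13, and neither gene overlapped between the groups.

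In oncogene-alone leukaemias 14 of the 35 rose against B220+ cells and 0 fell (all genes 9.48% and 11.9%, like brightness 13.6% and 19.9%), with a median of 0.56. The smallest adjusted p belonged to Pno1, at 9.28 and 9.55 in the leukaemias (0.79 ± 0.13, adjusted p = 0.00112, limma). Rcl1, at 9.48 and 9.76, rose by 1.11 ± 0.20, Ncl by 0.81 ± 0.16 and Srm by 1.71 ± 0.36. Hspd1 rose by 1.41 ± 0.30 and Nop58 by 1.10 ± 0.24. Odc1 was at 11.00 and 9.49 and rose by 1.21 ± 0.37. The count depends on array 2: without it 7 genes rose and the median was 0.21, and with array weights 6 rose.

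The leukaemias differ from B220+ cells in their marker genes too. All 10 B lineage markers fell in both leukaemias, and 11 of 13 monocyte and macrophage markers rose in heterozygous and 8 of 13 in oncogene-alone leukaemias. Of 25 cell division genes 23 rose in each. The part of these shifts in the rises of the listed genes was not tested.

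**Figure D3:**
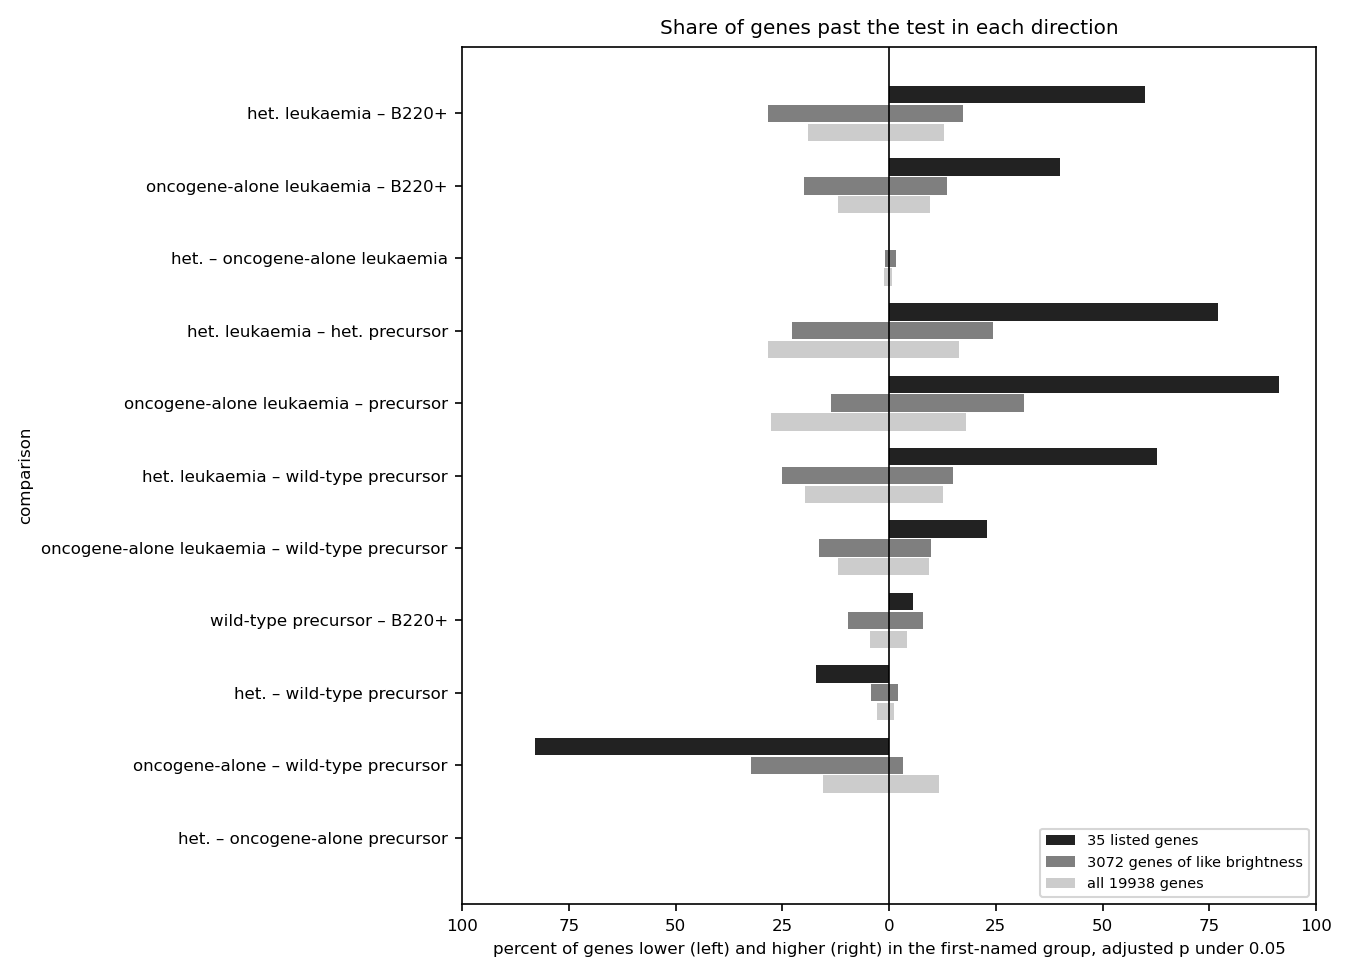
Percent of the 35 listed genes (black), of 3072 genes of like brightness (grey) and of all 19938 genes (light grey) that were lower (left) or higher (right) in the first-named group of 11 comparisons, at an adjusted p under 0.05. The black bars exceed the others to the right in leukaemia comparisons with B220+ cells and precursors, and to the left for oncogene-bearing against wild-type precursors.

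Heterozygous and oncogene-alone leukaemias differ by label in the Pax5 copy, and also in other features. Pax5 itself read 8.37 to 12.06 in heterozygous and 8.10 and 8.39 in oncogene-alone leukaemias. Neutrophil markers stood at 7.26 to 9.98 in the first and at 11.59 and 12.17 in the second. The part of these features was not tested. Compared directly, the leukaemias had 0 of the 35 genes past the test (limma, 1 at an unadjusted p under 0.05). Such a p was found in 13.9% of all genes and 21.3% of genes of like brightness. In heterozygous leukaemias 0.712% of all genes were higher and 1.16% lower, and 1.63% and 1.01% of genes of like brightness. The median difference was 0.04. Bysl had the smallest p, at -0.42 ± 0.19 (adjusted p = 0.343). The difference in Myc was -0.10 ± 0.53, with a 95% interval from -1.24 to 1.03, and 0.86 without oncogene-alone leukaemia 2. That in Mycn was -1.21 ± 0.82 (interval -2.98 to 0.55). For Nop58 the interval ran from -0.41 to 0.56, for Ncl from -0.30 to 0.37 and for Srm from -1.09 to 0.42. The count was 0 in the 9 planned settings that kept all arrays. Without oncogene-alone leukaemia 2, whose array was above array 1 in 31 of the 35 genes, 1 gene was lower in heterozygous leukaemias and the median was 0.30.

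Before leukaemia the genes stood lower with the oncogene than in wild type. In oncogene-alone precursors 29 of 35 fell and 0 rose, with a median of -0.59. Of all genes 15.5% fell and 11.6% rose. Of genes of like brightness 32.3% fell and 3.16% rose, with a median of -0.25. In 32 of the 35 every oncogene-alone array was below every wild-type array (22.9% of all genes).

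Polr1b and Rcl1 had the smallest adjusted p of these falls. Polr1b, the second-largest subunit of RNA polymerase I, read 8.86, 8.77, 8.86 and 8.73 in wild-type, 8.50, 8.31 and 8.24 in heterozygous and 7.81, 8.03 and 7.76 in oncogene-alone precursors. The 3 groups did not overlap. It fell by 0.94 (SE 0.086, adjusted p = 0.00223, limma) in oncogene-alone and by 0.46 (SE 0.086, adjusted p = 0.0271) in heterozygous precursors. Mybbp1a read 9.19, 9.01, 9.09 and 9.11, then 8.82, 8.75 and 8.44, then 8.26, 8.07 and 8.14 in the same order, again without overlap. Its changes were -0.94 ± 0.094 and -0.43 ± 0.094. All 3 polymerase genes, all 6 snoRNP genes and all 3 nucleolar proteins fell in oncogene-alone precursors.

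Among the probe sets used, Nop58 had the largest fall of the list. It read 9.05, 9.39, 9.26 and 9.18 in wild-type and 8.21, 7.48 and 7.41 in oncogene-alone precursors. The heterozygous ones, at 8.32, 8.19 and 8.26, lay below wild type and overlapped the oncogene-alone range. The changes were -1.52 ± 0.17 (2.87-fold lower, adjusted p = 0.00237, limma) and -0.96 ± 0.17 (adjusted p = 0.0245). Of the small subunit genes 7 of 8 fell in oncogene-alone precursors, Rcl1 by 0.65 (SE 0.060), Wdr43 by 0.67 (SE 0.078) and Pno1 by 0.97 (SE 0.13). Of the large subunit genes 6 of 9 fell, and Bop1 was at -0.12 ± 0.076 (adjusted p = 0.242). Srm, Odc1, Hspd1 and Hspe1 fell too, Srm by 1.30 (SE 0.30) and Hspd1 by 1.32 (SE 0.21). The dimmer probe set of Hspd1, not tested on its own, differed by -2.17 between oncogene-alone and wild-type precursors. Nolc1, a chaperone of snoRNPs, fell by 0.76 (SE 0.098).

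In heterozygous precursors 6 of 35 fell and 0 rose (all genes 2.94% and 1.23%, like brightness 4.23% and 2.15%). The 6 were Rcl1 (-0.46 ± 0.060, adjusted p = 0.0112, limma), Hspd1 (-1.21 ± 0.21), Nop58, Polr1b, Dkc1 (-0.86 ± 0.17) and Mybbp1a. Dkc1 is dyskerin, the enzyme of the H/ACA particles that modify RNA, and it read 9.48, 9.76, 9.69 and 9.49 in wild type against 8.76, 8.53 and 8.94. In 24 genes every heterozygous array was below every wild-type array (12% of all genes). An unadjusted p under 0.05 was found in 24 of the 35, in 23.2% of all genes and in 33.3% of genes of like brightness. The median was -0.31, against -0.09 for genes of like brightness. The number of calls rested on single arrays: it was 1 without heterozygous precursor 2, without wild-type precursor 1 or without wild-type precursor 2, and 0 without wild-type precursor 3. It was 24 with array weights.

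Other features of the arrays moved with the precursor groups. The spread of all genes on an array, upper minus lower quartile, was 2.80 to 3.01 in oncogene-alone, 2.97 to 3.18 in heterozygous and 3.17 to 3.36 in wild-type precursors. After scaling the arrays to a common distribution by quantiles, 19 of the 35 genes fell in oncogene-alone precursors with a median of -0.39. Cell division genes read 9.46 to 10.40 in oncogene-alone, 9.23 to 10.56 in heterozygous and 10.92 to 11.08 in wild-type precursors, and 14 and 0 of 25 fell. T and NK cell markers fell in 7 and 5 of 12, respectively, while the mean of 12 proB and preB markers stayed between 10.55 and 10.82 on all 10 arrays. The part of these features in the falls was not tested.

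Set directly against each other, heterozygous and oncogene-alone precursors had 0 of the 35 genes past the test (limma, 18 at an unadjusted p under 0.05). Of all 19938 genes 14.3% had such a p, and of genes of like brightness 22.6%. Of all genes 5 passed, 0.015% higher and 0.01% lower in heterozygous precursors. With the replicate number as a block 0 of all genes passed. The difference was above 0 in 34 of 35 genes, with a median of 0.25, and genes of like brightness had a median of 0.17. Polr1b had the smallest p (0.49 ± 0.092, adjusted p = 0.144), and in 15 genes every heterozygous array was above every oncogene-alone array (7.05% of all genes). In 1 gene, Mycn, every one was below (9.41% of all genes). Myc differed by 0.23 ± 0.48 (interval -0.84 to 1.30) and Mycn by -0.19 ± 0.066 (adjusted p = 0.265). With array weights 2 genes rose, and without heterozygous precursor 2 or without heterozygous precursor 3 there was 1 call.

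**Figure D4:**
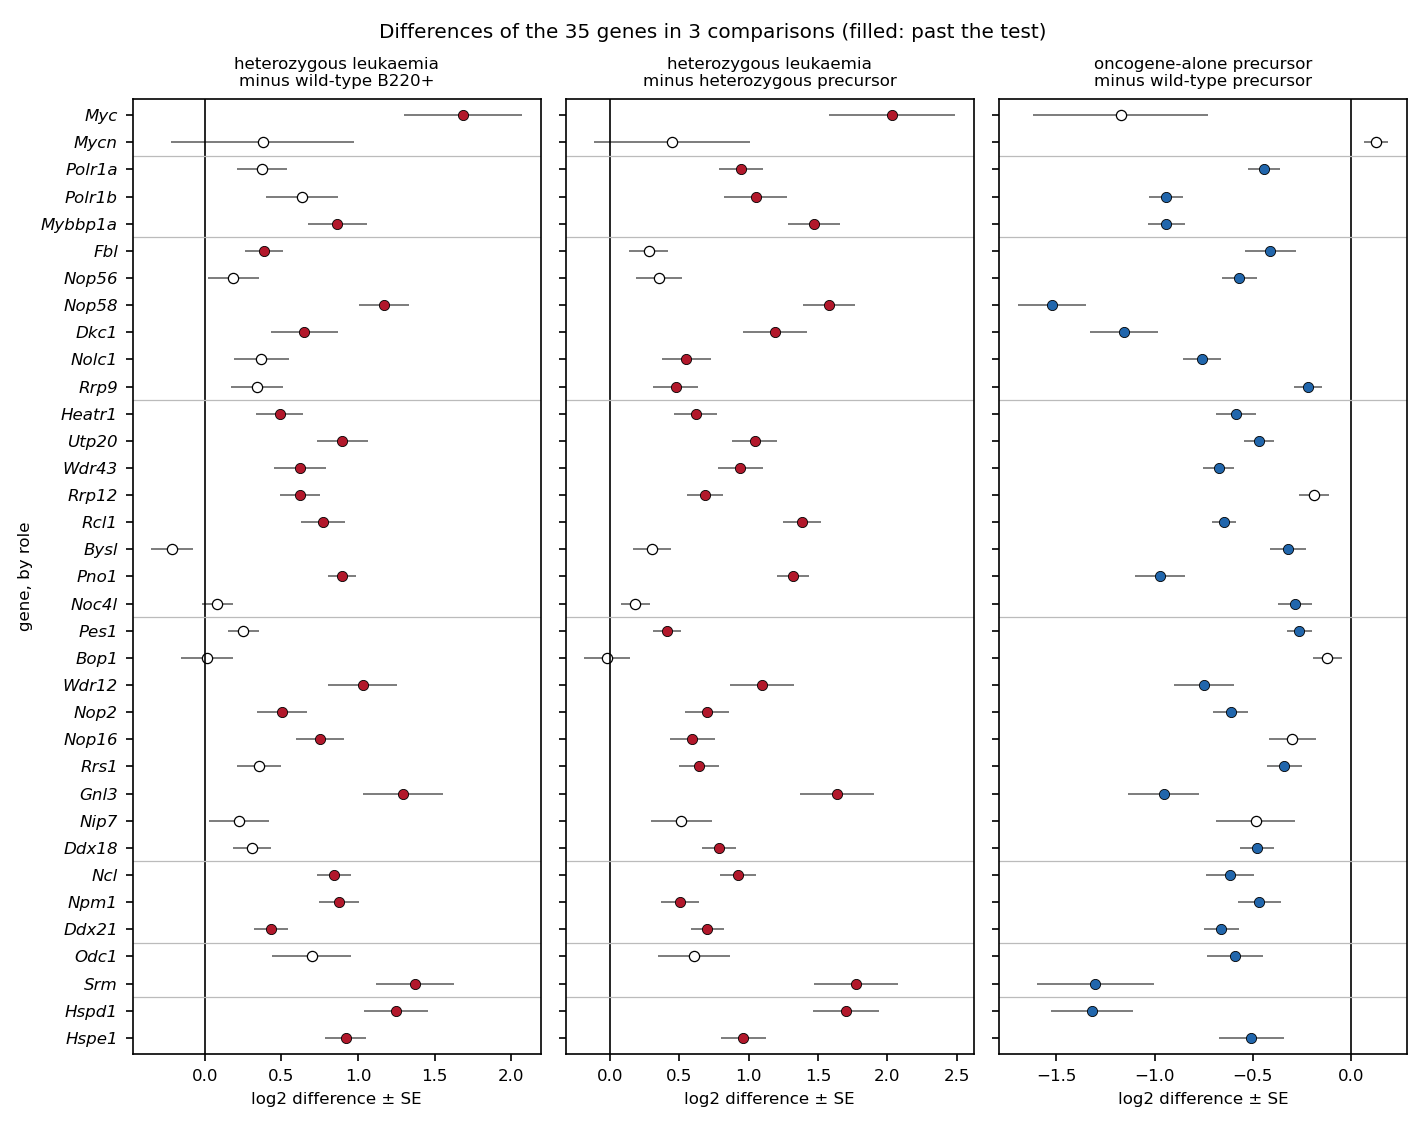
Log2 difference ± SE (limma) of each of the 35 genes, by role, in heterozygous leukaemias minus B220+ cells, heterozygous leukaemias minus heterozygous precursors, and oncogene-alone minus wild-type precursors. Filled points passed the test: 21 and 27 to the right of 0 in the first pair of panels and 29 to the left of 0 in the last.

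From precursor to leukaemia the genes rose in both genotypes. Heterozygous leukaemias had 27 of 35 higher than heterozygous precursors and 0 lower (all genes 16.4% and 28.4%, like brightness 24.4% and 22.7%), with a median of 0.70 against 0.03 for genes of like brightness. In 25 genes the groups did not overlap (10.7% of all genes). Myc rose by 2.03 ± 0.46 (4.09-fold, adjusted p = 0.00162, limma), or by 1.33 without heterozygous precursor 3 (adjusted p = 0.0266), and Mycn was at 0.45 ± 0.56. Pno1, at 7.96, 8.24 and 8.40 in the precursors, rose by 1.32 ± 0.11, and Rcl1, at 7.81 to 8.0003, by 1.39 ± 0.14 (adjusted p = 6.81e-08 and 3.26e-07). Nop58 rose by 1.58 ± 0.19, Mybbp1a by 1.47 ± 0.19, Hspd1 by 1.70 ± 0.24 and Ncl by 0.92 ± 0.13. All 3 polymerase genes rose, 4 of 6 snoRNP, 6 of 8 small subunit and 7 of 9 large subunit genes. The 8 without a call were Mycn, Fbl, Nop56, Bysl, Noc4l, Bop1, Nip7 and Odc1. Fbl and Odc1 each had a dimmer probe set with a larger difference. It was 0.83 against 0.28 for Fbl and 1.13 against 0.60 for Odc1. Of the called genes, the dimmer set differed by 0.39 against 0.78 for Ddx18 and by 2.48 against 1.70 for Hspd1. For Wdr12 it was 1.20 against 1.10 and for Hspe1 0.95 against 0.96. None of the dimmer sets was tested on its own.

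Oncogene-alone leukaemias had 32 of 35 higher than oncogene-alone precursors and 0 lower (all genes 18.1% and 27.6%, like brightness 31.7% and 13.7%). The median was 1.04, against 0.21 for genes of like brightness. Pno1 rose by 1.72 ± 0.15 (adjusted p = 2.13e-07, limma), Rcl1 by 1.91 ± 0.18, Nop58 by 2.06 ± 0.25 and Mybbp1a by 1.96 ± 0.25. Ncl rose by 1.11 ± 0.17 and Ddx21 by 1.00 ± 0.16. Myc rose by 2.37 ± 0.60 (adjusted p = 0.00415), a call lost without leukaemia array 2 (1.40, adjusted p = 0.116), with other arrays in the fit (adjusted p = 0.0697) and with array weights (adjusted p = 0.0502). Mycn was at 1.47 ± 0.74 (adjusted p = 0.112). The 3 genes without a call were Mycn, Fbl and Bop1. For Fbl the dimmer probe set, not tested on its own, differed by 0.79, against 0.34 for the one used. For called genes the dimmer set differed by 0.44 against 0.97 for Ddx18, 2.81 against 1.97 for Hspd1 and 1.75 against 1.19 for Odc1. It differed by 1.61 against 1.46 for Wdr12 and by 0.89 against 0.86 for Hspe1. The count was 21 without leukaemia array 2. In these steps 7 of 10 B lineage markers fell in each genotype, and monocyte and macrophage markers rose in 12 of 13 in heterozygous and 10 of 13 in oncogene-alone mice. Of 25 cell division genes 8 and 18 rose, and the part of these shifts was not tested.

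The step from precursor to leukaemia was 0.24 smaller in heterozygous mice at the median of the 35 genes, and lower in 31 of them. However, 0 passed the test of that difference (limma, 3 at an unadjusted p under 0.05). Such a p was found in 13.1% of all genes and 18.1% of genes of like brightness. Of all genes 0.692% passed, and genes of like brightness had a median of -0.17. Noc4l had the smallest p, at -0.41 ± 0.17 (adjusted p = 0.304). Myc differed by -0.34 ± 0.76 and Mycn by -1.02 ± 0.93. Without oncogene-alone leukaemia 2 there was 1 call.

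The leukaemias were also set against wild-type precursors. In heterozygous leukaemias 22 of 35 rose and 0 fell (all genes 12.7% and 19.6%, like brightness 14.9% and 25.1%), with a median of 0.50. Pno1 rose by 0.85 ± 0.10, Rcl1 by 0.93 ± 0.12 and Mybbp1a by 1.04 ± 0.17 (adjusted p = 4.74e-06, 1.44e-05 and 0.000132, limma). Utp20 rose by 0.77 ± 0.15, Ncl by 0.53 ± 0.12 and Polr1a by 0.65 ± 0.14. Myc was at 1.09 ± 0.42 with an adjusted p of 0.0497, and the groups overlapped. This call was lost in 8 of the 11 fits that left out an array, with an adjusted p up to 0.110.

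In oncogene-alone leukaemias 8 of 35 rose against wild-type precursors and 0 fell (all genes 9.36% and 12%, like brightness 9.86% and 16.4%), with a median of 0.46. They were Rcl1 (1.26 ± 0.17, adjusted p = 3.61e-05, limma), Pno1 (0.75 ± 0.14), Mybbp1a (1.02 ± 0.24), Rrp12, Srm (1.28 ± 0.38), Ddx18, Ncl and Polr1a. Myc was at 1.20 ± 0.57 (adjusted p = 0.141) and Mycn at 1.60 ± 0.71. Without leukaemia array 1 Myc passed, at 2.17 (adjusted p = 0.0414), and without array 2 it was at 0.23 (adjusted p = 0.855). The count was 15 without leukaemia array 1, 5 without leukaemia array 2 and 5 without wild-type precursor 4.

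Few of the genes passed between wild-type proB and preB cells and wild-type B220+ cells. Of the 35, 2 rose and 0 fell (all genes 4.26% and 4.57%, like brightness 7.88% and 9.60%), with a median of 0.11. Npm1 read 10.96, 11.22, 10.97 and 10.85 in the precursors and 10.06, 9.99, 10.50, 10.61 and 10.55 in B220+ cells, a rise of 0.66 ± 0.13 (adjusted p = 0.00294, limma) with no overlap. Hspd1 read 10.23, 10.68, 10.58 and 10.26 and rose by 0.76 ± 0.23 (adjusted p = 0.0429), a call lost in 8 of the 9 fits that left out an array. Myc was 0.59 ± 0.44 higher (adjusted p = 0.530) with no overlap between the groups, and it passed when only the arrays of both groups entered the fit (adjusted p = 0.000465). Mycn differed by -0.01 ± 0.55. Cell division genes differed in the same comparison in 25 of 25, all higher in precursors with a median of 1.46. The count of listed genes was 14 with array weights and 13 when only the arrays of both groups entered the fit.

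Within groups the arrays differed most among leukaemias. The median SD of the 35 genes was 0.33 in heterozygous and 0.36 in oncogene-alone leukaemias, 0.15 in B220+ cells and 0.08 in wild-type precursors. Over all genes the median SD was 0.17, 0.14, 0.11 and 0.08 in the same groups. The mean of the 33 genes other than Myc and Mycn, taken relative to the B220+ mean, was 0.58, 0.47, 0.25, 0.90, 1.03, 0.35 and 0.71 on heterozygous leukaemias 1 to 7. Arrays 4 and 5 were the highest, and they had the highest Myc of the group, 11.74 and 11.67. Array 3 was the lowest in both, with Myc at 9.74. Arrays 4 and 5 were the highest of the group for 16 and 17 of the 35 genes, and arrays 3 and 6 the lowest for 17 and 16.

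The same mean was 0.40 and 0.80 in oncogene-alone leukaemias, 0.09, 0.21, 0.16 and 0.07 in wild-type, -0.18, -0.22 and -0.29 in heterozygous and -0.43, -0.44 and -0.63 in oncogene-alone precursors. All 9 leukaemias lay above all 15 other arrays, and all 6 oncogene-bearing precursors below all others. Cell division genes were ordered otherwise: wild-type precursors, at 10.92 to 11.08, were above all heterozygous leukaemias, at 10.38 to 10.83. Oncogene-alone leukaemias 1 and 2 read 11.35 and 10.77, the first above and the second below all wild-type precursors.

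**Figure D5:**
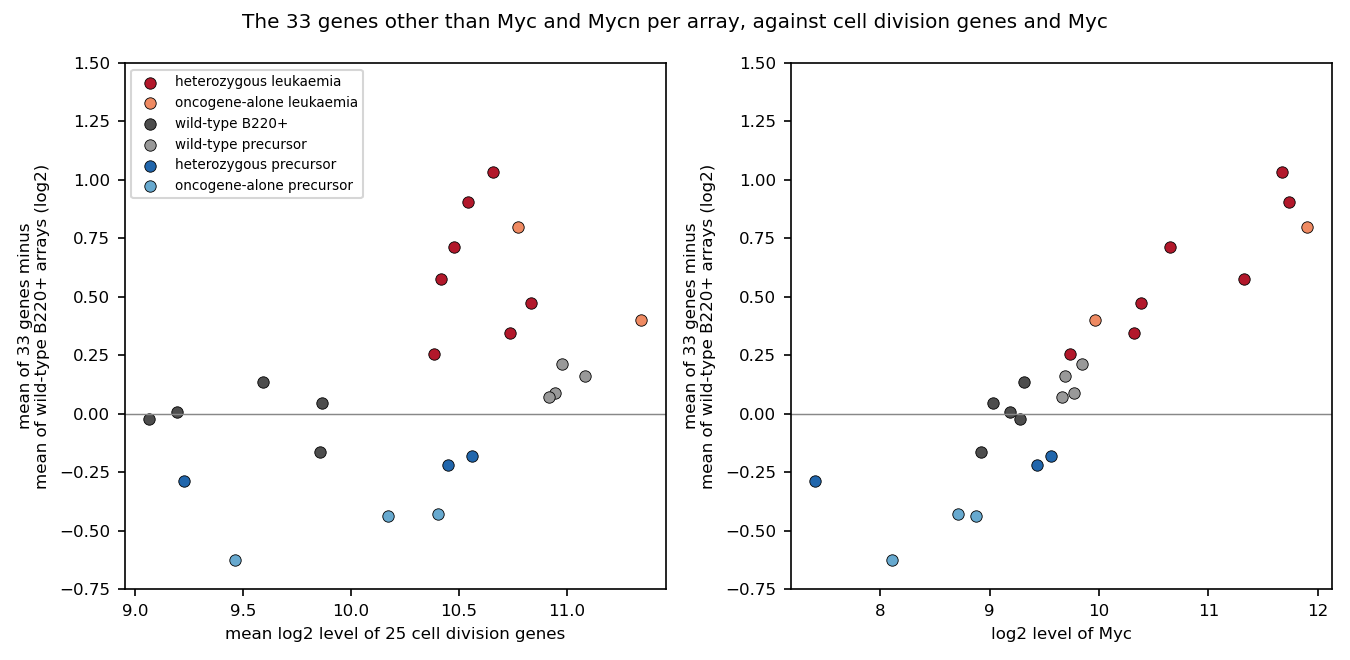
Mean log2 level of the 33 genes other than Myc and Mycn, relative to the mean of the B220+ arrays, against the mean of 25 cell division genes (left) and against Myc (right), 1 point per array coloured by group. With higher cell division genes, wild-type precursors (0.07 to 0.21) lie below heterozygous leukaemias (0.25 to 1.03). The 3 arrays with the highest Myc have the 3 highest means. Heterozygous precursors 1 and 2, with Myc at 9.56 and 9.43, are above all B220+ arrays in Myc. Their means of -0.18 and -0.22 are below those of all B220+ arrays.

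Other genes of the same pathways, not among the 35, moved in both directions. In heterozygous leukaemias against B220+ cells 17.4% of genes of like brightness rose and 28.4% fell. Of 42 other small subunit processome genes 10 rose and 6 fell in that comparison, with a median of 0.14. The examples with the smallest adjusted p were Nol7 (-0.67 ± 0.12) and Aatf (0.89 ± 0.17). Of 42 other large subunit genes 11 rose and 6 fell, among them the helicase Ddx54 (-0.83 ± 0.10) and Sbds (-0.43 ± 0.08). Of 17 other snoRNP and RNA modification genes 6 rose and 1 fell, and Shq1, an assembly factor of H/ACA particles, rose by 0.77 ± 0.11. Of 16 other polymerase I genes 3 rose and 4 fell, with Ttf1, a termination factor, at -0.51 ± 0.07.

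In oncogene-alone against wild-type precursors most of the called genes of these lists fell, where 32.3% of genes of like brightness fell and 3.16% rose. Of the 42 small subunit genes 27 fell and 0 rose (median -0.44), with Pwp2 at -0.51 ± 0.06 and Wdr75 at -0.61 ± 0.07. Of the 42 large subunit genes 29 fell and 0 rose (median -0.41), with Nifk at -1.01 ± 0.08 and Rsl1d1 at -0.77 ± 0.11. Of 17 snoRNP genes 11 fell and 0 rose, Gar1 by 0.94 (SE 0.11) and Ruvbl1 by 0.86 (SE 0.11). Of 16 polymerase I genes 5 fell and 1 rose, a share of falls near that of genes of like brightness, with Polr1c at -0.56 ± 0.09 and the initiation factor Rrn3 at -0.57 ± 0.12.

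Against heterozygous precursors, 24.4% of genes of like brightness rose in heterozygous leukaemias and 22.7% fell. This comparison had 19 of the 42 small subunit genes higher and 3 lower, Tsr1 at 1.53 ± 0.22 and Mphosph10 at 0.93 ± 0.15. Of the 42 large subunit genes 19 rose and 2 fell, with Ddx54 at -0.75 ± 0.11 and Rpf2 at 0.72 ± 0.11. Polyamine genes were few: 3 of 8 rose and 1 fell, and Eif5a, which carries the spermidine-derived hypusine, rose by 0.91 ± 0.11 while Dhps, which attaches it, was at -0.46 ± 0.10. Of 9 other mitochondrial chaperones and proteases 5 rose and 1 fell, the chaperone Hspa9 by 1.54 ± 0.18 and the protease subunit Afg3l2 by 0.69 ± 0.13.

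Partners and antagonists of MYC formed a list of their own. Of these 12 genes of the MYC network 5 fell and 0 rose in heterozygous leukaemias against B220+ cells. Of all genes 12.9% rose and 18.9% fell, and of genes of like brightness 17.4% and 28.4%. Mlx was at -0.76 ± 0.08 and Zbtb17 at -0.67 ± 0.11 (adjusted p = 1.49e-05 and 0.000440, limma). Zbtb17 encodes MIZ1, a protein that MYC can turn into a repressor. Max, the partner of MYC, was at -0.10 in that comparison and did not pass the test. Against heterozygous precursors 6 fell and 0 rose (all genes 28.4% and 16.4%, like brightness 22.7% and 24.4%). In that step Mxd4, an antagonist that competes for MAX, was at -0.93 ± 0.15. Mxd4 read 9.51 to 10.19 in heterozygous leukaemias and 10.57 to 10.88 in their precursors, without overlap.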

How the data were processed

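The values used are log2 expression per probe set as deposited, made by the authors with RMA and oligo, as the submitters' processing notes list them without versions. RMA subtracts background, equalises the arrays by quantiles and combines the probes of a set, and no source says if the 24 arrays were run as 1 batch. The largest gap between arrays at 1 rank was 0.331. The table held 35556 probe sets: 21789 had 1 symbol in the platform annotation, 1621 several and 12146 none, and 21698 of the first matched RefSeq (GRCm38.p6). Scanner files were not used here, and the number of arrays limits the precision.

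Groups came from the sample titles. Differences were tested with limma 3.58.1 (lmFit, contrasts.fit and eBayes, two-sided, R 4.3.3), on the 14 arrays of the leukaemia set, the 10 of the precursor set or, between stages, all 24, with no dim filter and no minimum fold. The fit was tested on simulated data. Comparisons share control groups, so their counts are not independent. Where both probe sets of a gene could be compared, 36 of 36 group differences had the same sign, though their sizes differed.

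The 35 genes, the marker and pathway lists and the naming rule were chosen with earlier results of these data known. By that rule Myc and Mycn are given in each main comparison, with up to 6 called genes of smallest adjusted p in the main direction and 3 in the other, and 2 called genes per pathway list. Other genes named within a role, such as Bop1, Odc1, Gnl3, Max and Mxi1, were chosen after their values were seen. Alternatives were 3 scalings, array weights, a trended and robust spread, a dim filter, the mean of a gene's probe sets, other arrays in the fit, the replicate number as a block and each array left out.

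Replicate numbers recur across groups. Deviations from group means correlated between same-numbered heterozygous and oncogene-alone precursors in all 3 pairs (0.208 to 0.25, limit 0.1), with 6 of 6 arrays closest to their own number. Precursor arrays of unlike numbers, wild type included, reached 0.441. The pairing comes from the data alone, as no label speaks of a common litter or day. The paired fit called 0 of the 35 genes, as did the unpaired one, and 0 of all genes against 5 without the block.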

Additional observations from a re-analysis of the deposited data

Results flagged for a closer look

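In groups of 4 to 10 arrays, 105 groups of values were tested for a single array far from the rest, and 8 stood out, where chance gives about 1 in 20. Mycn read 9.73 on heterozygous leukaemia 4, with the next array at 7.10. In B220+ cells Utp20 was low on array 1 (8.12, next 8.50), Bop1 was low on array 1 (9.41, next 9.67) and Srm was high on array 4 (9.85, next 9.39). In wild-type precursors array 2 was high for Wdr43 (9.997, next 9.80) and low for Rrp12 (7.74, next 7.83) and Noc4l (8.73, next 8.88), and array 3 was high for Nop16 (10.37, next 10.30). The gaps in wild-type precursors are small in size, since the arrays of that group lie close together.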

How the results depend on the processing

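The median of the 35 genes kept its sign in the settings that kept all arrays, except between the leukaemias (-0.01 to 0.06). Of single-gene values 6682 of 7399 kept direction and call, 323 lost a call, 158 gained one, 235 without a call changed sign and 1 called value reversed: Pes1 in oncogene-alone against wild-type precursors was 0.0031 after quantile scaling. Counts of called genes moved by over 1.5 times as follows. With array weights they were 6 (oncogene-alone leukaemias against B220+ cells), 24 (heterozygous against wild-type precursors), 2 (between oncogene-bearing precursors), 21 (oncogene-alone leukaemias against their precursors), 14 (wild-type precursors against B220+ cells) and 2 (oncogene-alone leukaemias against wild-type precursors). With other arrays in the fit they were 2 for heterozygous and 19 for oncogene-alone against wild-type precursors, 20 for oncogene-alone leukaemias against their precursors and 13 for wild-type precursors against B220+ cells. Quantile scaling gave 19 for oncogene-alone against wild-type precursors, cyclic loess 15 for oncogene-alone leukaemias against wild-type precursors, and median centring and the mean of all probe sets 1 each for wild-type precursors against B220+ cells. With the replicate block, heterozygous against wild-type precursors had 1 call; there the numbers do not pair the arrays. Leaving out 1 array at a time gave 17 to 25 and 7 to 13 calls for heterozygous and oncogene-alone leukaemias against B220+ cells and 0 to 1 between them. It gave 0 to 8 and 20 to 27 for heterozygous and oncogene-alone against wild-type precursors, 0 to 1 between these, 24 to 30 and 21 to 31 for the steps to leukaemia and 0 to 1 for their difference. It gave 1 to 2 for wild-type precursors against B220+ cells, and 17 to 24 and 5 to 15 for the leukaemias against wild-type precursors. Median centring moved the median of all genes by over 0.1 in heterozygous leukaemias (-0.06 to -0.20) and oncogene-alone leukaemias (-0.07 to -0.21) against B220+ cells and in heterozygous leukaemias against their precursors (-0.08 to -0.19). The percent of higher genes among all called genes went from 44.4 to 19.1 with median centring and 55.8 with cyclic loess for oncogene-alone leukaemias against B220+ cells, from 36.6 to 21.2 and 52.6 for heterozygous leukaemias against their precursors, and from 39.3 to 21.0 and 54.5 (heterozygous) and 43.7 to 25.4 and 58.0 (oncogene-alone) against wild-type precursors. It went from 39.6 to 51.8 with cyclic loess for oncogene-alone leukaemias against their precursors and from 48.2 to 35.2 with median centring for wild-type precursors against B220+ cells. Quantile scaling moved it from 29.4 to 52.8 for heterozygous and 42.9 to 54.2 for oncogene-alone against wild-type precursors, the latter 31.6 with median centring. Leaving out dim genes, which tests fewer genes, moved it from 42.9 to 20.2 for oncogene-alone against wild-type precursors (all-gene median 0.04 to -0.18), from 39.6 to 61.3 for oncogene-alone (-0.08 to 0.15) and from 36.6 to 54.6 for heterozygous leukaemias (-0.08 to 0.05) against their precursors. Limits are the 2 oncogene-alone leukaemias, tumour marrow for which the labels name no sort set against B220+ or proB and preB cells, and arrays normalized in an unstated grouping. The causes of these moves were not tested.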

Other observations

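Of the 12 genes of the MYC network, 1 passed the test between the leukaemias. Of all genes 0.712% were higher and 1.16% lower in heterozygous leukaemias. Mxi1, an antagonist that competes with MYC for MAX, read 7.74 to 8.49 in heterozygous leukaemias and 9.54 and 8.81 in oncogene-alone ones, a difference of -1.16 ± 0.19 (adjusted p = 0.00671, limma). Its change against B220+ cells was -0.56 ± 0.14 in heterozygous and 0.59 ± 0.20 in oncogene-alone leukaemias. Mxd1, a further antagonist, read 8.67 to 10.53 in heterozygous leukaemias and 11.59 and 10.32 in oncogene-alone ones, which overlap. It rose in oncogene-alone leukaemias against B220+ cells by 1.38 ± 0.44 (adjusted p = 0.0402, limma), and its difference between the leukaemias was -1.65 ± 0.42 (adjusted p = 0.0699). Both genes were higher on array 1 than on array 2 of the oncogene-alone leukaemias, the reverse of Myc. Neutrophil markers (7 of 14 lower in heterozygous leukaemias) and erythroid markers also differ between these arrays, and their part in these levels was not tested.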
